A study of Mus musculus with 4 samples.

Results

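Most of the 36 genes described here encode enzymes that feed pyruvate into the tricarboxylic acid (TCA) cycle, run the cycle, or oxidise fatty acids in mitochondria. The list also holds Pdk1 and Pdk3, kinases that inhibit pyruvate entry, the cytosolic enzymes Aco1, Idh1 and Mdh1, and the carrier Slc25a20. The 36 genes were chosen by symbol from a table of 18021 genes. All 36 were present and all reached a mean of at least 1 FPKM (fragments per kilobase of transcript, scaled to the fragments in the library) over the libraries. The RNA came from C57BL/6 mouse dendritic cells grown from bone marrow over 5 days in GM-CSF and IL4, cytokines that drive this cell type, and matured over 24 h with 100 ng/ml lipopolysaccharide (LPS), a bacterial wall component. All 4 groups shared this culture and maturation. Cells then received the small interfering RNA si-NC or si-Lnc-Dpf3, named for a long non-coding RNA, and were left in medium (Med) or given CCR7L for 12 h, a mix of CCL19 and CCL21, which are ligands of the migration receptor CCR7. The groups were si-NC/Med, si-NC/CCR7L, si-Lnc-Dpf3/Med and si-Lnc-Dpf3/CCR7L, with 1 library in each, so no group had a replicate and single ratios carry no p-value. The labels give neither the number of animals nor whether marrow was pooled. The non-coding RNA itself was not analysed here, and the depletion achieved by the siRNA is therefore unknown. The study's title names glycolysis driven by the factor HIF1α, and most of these genes belong to the oxidative side of the same metabolism.

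Pyruvate made by glycolysis enters mitochondria and is turned into acetyl-CoA by the pyruvate dehydrogenase complex, which pyruvate dehydrogenase kinases switch off by phosphorylation. Fatty acids enter as carnitine esters and are shortened by the repeated steps of beta-oxidation, which also yield acetyl-CoA. The TCA cycle oxidises acetyl-CoA and passes electrons to the respiratory chain. In mouse dendritic cells activated through LPS, glycolysis is known to rise and mitochondrial oxidation to be reduced during maturation.

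With si-Lnc-Dpf3, most of these genes were slightly higher than with si-NC, in Med and in CCR7L alike. For 25 of 36 genes both si-Lnc-Dpf3 libraries lay above both si-NC libraries, and for 0 both lay below, against 24.8% and 15.7% of all 11041 genes tested. The sizes were small. The median log2 ratio of FPKM + 1 was 0.10 in Med and 0.09 under CCR7L, beside 0.02 and 0.01 over all genes tested. The 36 genes were chosen with earlier results of these data known. In 2 lists of further genes of these pathways, 7 of 28 and 8 of 33 had both si-Lnc-Dpf3 libraries above both si-NC libraries. For 3 and 4 of them both lay below. Averaged over both stimulations, 1 of 36 genes rose and 0 fell in limma's moderated test (adjusted p under 0.05 over all genes), against 2.33% and 2.04% of all genes. The gene that rose was Idh3a, the catalytic subunit of the isocitrate dehydrogenase that works in the TCA cycle. CCR7L called 0 of the 36 genes in the same test, while 2.93% of all genes rose and 3.11% fell.

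Library depth, read off the spacing of low FPKM values, came to between 19850000 and 20450000 reads. At that depth the 36 genes held between 277 and 7309 reads per library, and counting error alone (95% level) reached ratios of 1.03-fold to 1.18-fold between libraries. These limits cover counting error and not differences between cultures. Of the listed dendritic cell markers, Ccr7 was the highest at 615 to 808 FPKM. Itgax stood at 24.7 to 33.3 FPKM, Flt3 at 11.9 to 12.6 FPKM and Zbtb46 at 10.4 to 13.9 FPKM. Macrophage markers ran from Adgre1 at 158 to 202 FPKM down to C1qa at 0.55 to 1.14 FPKM. Summed FPKM was at most 6.65 for 5 B cell markers, 5.42 for 6 T cell markers, 0.31 for 3 NK cell markers and 2.10 for 5 stromal markers. The 5 erythroid markers together reached 15.1 FPKM at most. Of the mast cell and basophil markers, Mcpt8 at 184 to 210 FPKM and Cpa3 at 85.6 to 93.7 FPKM were the highest. Cma1 at 2.47 to 3.22 FPKM and Tpsb2 at 0.64 to 1.32 FPKM were the lowest.

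Markers of other cells differed between the siRNAs in the same libraries. The summed FPKM of 14 neutrophil markers was 9346 and 9721 with si-NC against 13766 and 13901 with si-Lnc-Dpf3. In the average siRNA effect 7 of the 14 rose and 0 fell, against 2.33% and 2.04% of all genes tested. Those called were Elane, Mpo, Prtn3, Ltf, Ngp, Camp and Cebpe, while Ctsg, Lcn2, Mmp8, Cxcr2 and Ly6g were not. S100a9 and S100a8 made up most of the sum but were not called (limma adjusted p = 0.099 and 0.054). S100a9 measured 3670 and 3884 FPKM with si-NC against 5721 and 5488 FPKM. S100a8 measured 3020 and 3269 FPKM against 4691 and 5022 FPKM. Lcn2, the next highest, hardly differed, at 1620 and 1540 FPKM against 1589 and 1641 FPKM. Without overlap 12 of the 14 were higher and 0 lower, against 24.8% and 15.7% of all genes tested. The summed FPKM of 20 mitosis and cell cycle genes was 444 and 429 with si-NC and 593 and 543 with si-Lnc-Dpf3, and 14 rose and 0 fell. The 13 dendritic cell markers summed to 1803 and 1727 FPKM with si-NC and 1513 and 1566 FPKM with si-Lnc-Dpf3, and 0 rose and 3 fell. The 9 macrophage markers tested held 2 that fell and 0 that rose, and their list summed to 517 and 499 FPKM with si-NC against 435 and 435 FPKM with si-Lnc-Dpf3. The mast cell and basophil list summed to 447 and 427 FPKM against 387 and 389 FPKM, and of its 7 markers tested 2 fell, 0 rose and 6 were lower without overlap. The 36 listed genes, inhibitory kinases included, summed to 1360 and 1350 FPKM with si-NC and 1449 and 1455 FPKM with si-Lnc-Dpf3. The part of these markers in the siRNA differences was not tested. In bulk RNA, a different number of cells of a type and a different amount of RNA per cell cannot be told apart.

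**Figure D1:**
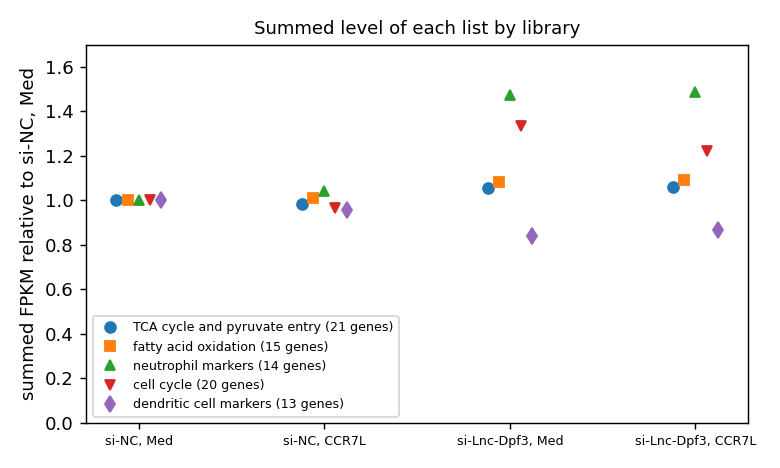
Summed FPKM of the TCA cycle and fatty acid oxidation genes and of marker lists in each library (horizontal axis), divided by the value in si-NC/Med; each point is 1 library. In the si-Lnc-Dpf3 libraries the 21 TCA cycle and pyruvate genes, inhibitory kinases and cytosolic enzymes included, stood at 1.06. The 15 fatty acid oxidation genes stood at 1.08 and 1.09. Neutrophil markers, a sum held mostly by S100a8 and S100a9, stood at 1.47 and 1.49 there. Dendritic cell markers stood at 0.84 and 0.87.

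Levels spanned a wide range, and since FPKM is scaled to transcript length they can be set beside each other. The mean FPKM over 4 libraries ran from 4.96 for Suclg2 to 173 for Mdh2, with a median of 27.9 over the 36 genes and 13.1 over all genes tested. Mdh2, the mitochondrial malate dehydrogenase, held 164 to 181 FPKM, and its lowest library lay above the highest of Cs, the citrate synthase that opens the cycle, at 103 to 122 FPKM. Next came Acadl at 63.8 to 69.1 FPKM, Dlst at 62.7 to 68.0 FPKM and Mdh1 at 58.2 to 72.3 FPKM, whose ranges over the libraries overlapped. At the low end stood Suclg2 at 4.61 to 5.45 FPKM, Pdk1 at 5.70 to 6.40 FPKM and Cpt2 at 8.07 to 9.23 FPKM, whose ranges did not overlap. Between libraries, a gene's highest value was at most 1.34 times its lowest, a ratio reached by Idh3a, and for Sucla2 it was 1.03 times.

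**Figure D2:**
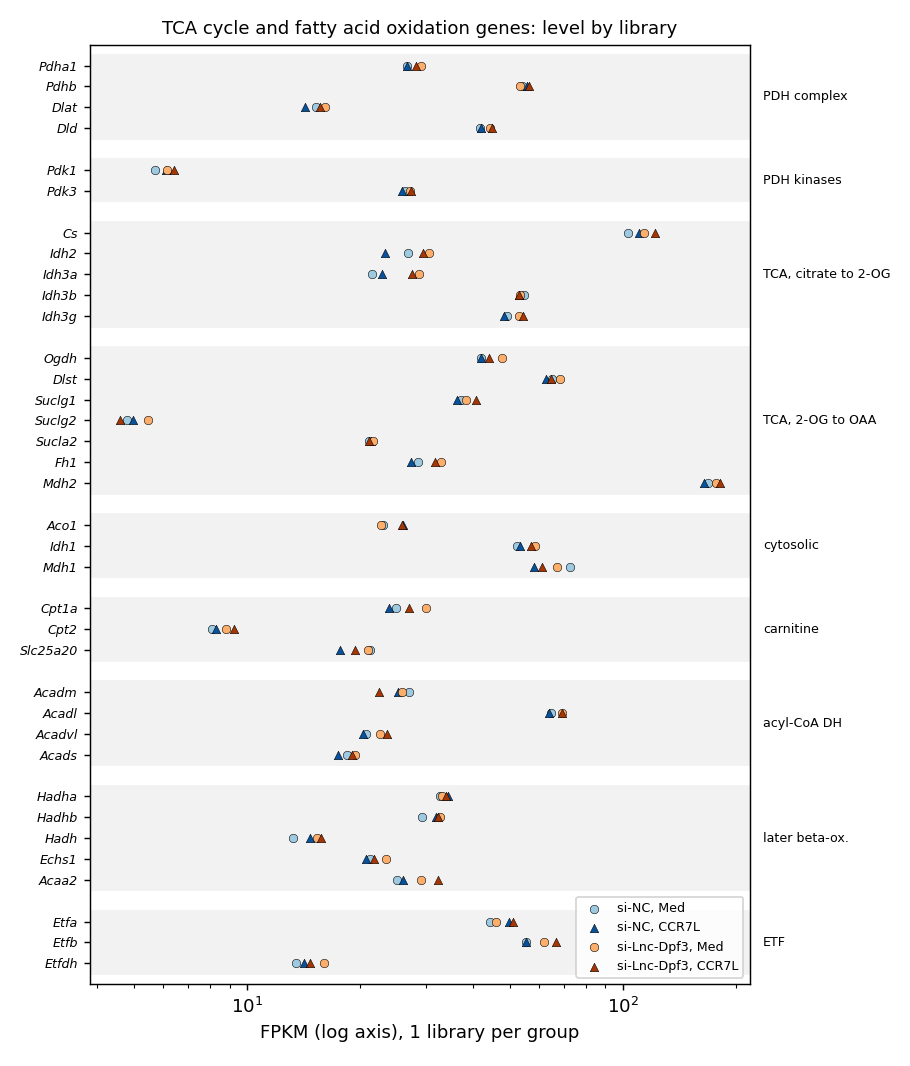
FPKM (horizontal log axis) of each of the 36 genes in 4 libraries, 1 point per library, with genes grouped by role on the vertical axis. Mdh2 and Cs stand to the right of all others and Suclg2 and Pdk1 to the left, and the spread between libraries is small beside the spread between genes.

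The pyruvate dehydrogenase complex consists of Pdha1 and Pdhb, the subunits of its first enzyme, Dlat, the acetyl-transferring core, and Dld, a dehydrogenase it shares with other complexes. Pdhb was the highest of the 4 genes at 54.1 FPKM in si-NC/Med, 55.5 in si-NC/CCR7L, 53.4 in si-Lnc-Dpf3/Med and 56.3 in si-Lnc-Dpf3/CCR7L. Dlat was the lowest of the 4 at 15.3, 14.3, 16.2 and 15.7 FPKM in the same order. Pdhb thus exceeded Dlat by 3.30 to 3.88 times. The si-Lnc-Dpf3 libraries lay above both si-NC libraries for Dlat, Pdha1 and Dld, while for Pdhb the siRNA groups overlapped. The average siRNA effect of Dlat was a log2 change of 0.10 ± 0.07 (SE) and did not pass (limma adjusted p = 0.54).

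Of the kinases that inhibit the complex, Pdk3 was more abundant than Pdk1, a gene known as a HIF1 target, by 4.23 to 4.63 times. Pdk1 measured 5.70 FPKM in si-NC/Med, 6.11 in si-NC/CCR7L, 6.14 in si-Lnc-Dpf3/Med and 6.40 in si-Lnc-Dpf3/CCR7L. Pdk3 measured 26.4, 25.9, 27.1 and 27.4 FPKM in that order. Both kinases were highest in the si-Lnc-Dpf3 libraries without overlap, by ratios within counting error in each stimulation. Pdk1 showed an average siRNA effect of 0.07 ± 0.09 (SE, limma adjusted p = 0.74) and a CCR7L effect of 0.07 ± 0.09 (limma adjusted p = 0.78).

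The enzymes from citrate to 2-oxoglutarate held the gene with the largest siRNA difference. Isocitrate dehydrogenase 3, the NAD-dependent enzyme of the cycle, has the catalytic subunit Idh3a and the regulatory subunits Idh3b and Idh3g. Idh3a lies on chromosome 9 (54586511 to 54604662, GRCm38). It measured 21.5 FPKM in si-NC/Med, 22.9 in si-NC/CCR7L, 28.7 in si-Lnc-Dpf3/Med and 27.6 in si-Lnc-Dpf3/CCR7L. Both si-Lnc-Dpf3 libraries were higher, and the groups did not overlap. The log2 ratio of si-Lnc-Dpf3 to si-NC was 0.40 in Med and 0.26 under CCR7L, and the average effect was 0.33 ± 0.07 (SE, limma adjusted p = 0.029). It was the only one of the 36 genes whose FPKM + 1 was at least 25% greater with 1 siRNA than with the other. Idh2 came closest, under CCR7L, where it was 1.26-fold higher with si-Lnc-Dpf3 in FPKM without the added 1. Idh3a reached the cut in Med. There 5.25% of all genes were that much higher with si-Lnc-Dpf3 and 4.22% with si-NC, beside 2.83% and 2.05% under CCR7L. The call was lost without the mean-variance trend (limma adjusted p = 0.099), without a filter on low values (0.46) and with the siRNA as the only factor (0.22, or 0.34 to 0.99 with any 1 library left out), all at log2 changes between 0.29 and 0.37. Without the filter 0 of 18021 genes passed, with the siRNA alone 1 of 11041, and with any 1 library left out 0 of 11041, so those settings bear little on this gene.

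The regulatory subunits did not follow Idh3a to the same extent. Idh3b measured 54.7, 53.1, 53.5 and 52.9 FPKM in si-NC/Med, si-NC/CCR7L, si-Lnc-Dpf3/Med and si-Lnc-Dpf3/CCR7L, and the siRNA groups overlapped. Idh3g measured 49.3, 48.5, 52.9 and 54.3 FPKM, with both si-Lnc-Dpf3 libraries higher. The level of Idh3b relative to Idh3a was therefore 2.55 and 2.31 with si-NC and 1.86 and 1.92 with si-Lnc-Dpf3, a difference between ratios that was not tested.

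**Figure D3:**
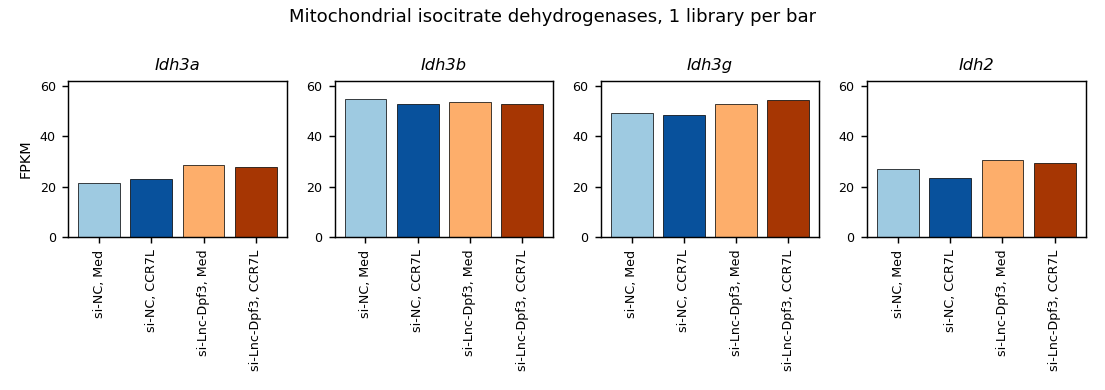
FPKM of the mitochondrial isocitrate dehydrogenase genes, 1 bar per library and no error bars since each group is 1 library. Idh3a stood at 21.5 and 22.9 FPKM with si-NC and at 28.7 and 27.6 FPKM with si-Lnc-Dpf3, while Idh3b lay between 52.9 and 54.7 FPKM in all 4 libraries.

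Idh2, the NADP-dependent mitochondrial isocitrate dehydrogenase, measured 26.9 FPKM in si-NC/Med, 23.3 in si-NC/CCR7L, 30.6 in si-Lnc-Dpf3/Med and 29.4 in si-Lnc-Dpf3/CCR7L. Both si-Lnc-Dpf3 libraries were higher, with log2 ratios of 0.18 in Med and 0.32 under CCR7L. It was lower with CCR7L under either siRNA, with log2 ratios of -0.20 in si-NC cells and of -0.05 after si-Lnc-Dpf3. The average CCR7L effect of -0.13 ± 0.07 (SE) did not pass (limma adjusted p = 0.43), but it did with the length and GC trend removed (-0.16, limma adjusted p = 0.031). That setting, also given for genes below, called 14.2% of all genes for CCR7L and 18.1% for the siRNA, against 6.04% and 4.37% in the main fit. Without the mean-variance trend 0 of the 36 genes passed for either factor, against 4.37% of all genes for CCR7L and 0.697% for the siRNA. Cs, the citrate synthase, measured 103, 111, 114 and 122 FPKM in si-NC/Med, si-NC/CCR7L, si-Lnc-Dpf3/Med and si-Lnc-Dpf3/CCR7L. Each of its 4 single-library ratios was above counting error, and the average changes of 0.10 for CCR7L and 0.14 for the siRNA did not pass (limma adjusted p = 0.51 and 0.27).

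The remaining listed cycle genes act between 2-oxoglutarate and oxaloacetate. Succinate dehydrogenase, which works in the same stretch, was not listed. Its genes Sdha, Sdhb, Sdhc and Sdhd had average siRNA log2 changes of 0.03, -0.0025, 0.03 and -0.08, without a call. Sdhd was lower with si-Lnc-Dpf3 without overlap, at 85.8 and 89.7 FPKM against 92.6 and 93.3 FPKM with si-NC. All 7 listed genes had a positive average siRNA effect, against 55.1% of all genes tested. Their median log2 change was 0.10, and 0 passed. Fh1, the fumarase, showed the largest at 0.20 ± 0.06 (SE, limma adjusted p = 0.12, or 0.0035 with the length and GC trend removed), with 28.6 FPKM in si-NC/Med, 27.3 in si-NC/CCR7L, 32.8 in si-Lnc-Dpf3/Med and 31.7 in si-Lnc-Dpf3/CCR7L. The groups did not overlap for Fh1, for Mdh2, for Ogdh, which opens the 2-oxoglutarate dehydrogenase complex, or for Suclg1, the subunit common to both succinyl-CoA ligases. They overlapped for Dlst, the core of the 2-oxoglutarate dehydrogenase complex.

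Succinyl-CoA ligase takes its nucleotide specificity from a beta subunit, which is Sucla2 for the ATP-forming and Suclg2 for the GTP-forming enzyme. Sucla2 measured 21.1, 21.4, 21.7 and 21.2 FPKM in si-NC/Med, si-NC/CCR7L, si-Lnc-Dpf3/Med and si-Lnc-Dpf3/CCR7L. Suclg2 measured 4.81, 4.97, 5.45 and 4.61 FPKM, so that Sucla2 exceeded it by 3.98 to 4.60 times in the 4 libraries. The siRNA groups overlapped for both. Suclg2 had the largest average CCR7L effect of these 7 genes, at -0.08 ± 0.10 (SE, limma adjusted p = 0.77) and -0.16 to -0.0057 with 1 library left out, and its 2 CCR7L ratios had opposite signs.

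The largest average CCR7L difference of the 36 genes, without a call, was that of a cytosolic enzyme. Mdh1, the cytosolic malate dehydrogenase of the malate-aspartate shuttle, measured 72.3 FPKM in si-NC/Med, 58.2 in si-NC/CCR7L, 66.8 in si-Lnc-Dpf3/Med and 60.9 in si-Lnc-Dpf3/CCR7L. Both CCR7L libraries were below both Med libraries, by a log2 ratio of -0.31 in si-NC cells and of -0.13 after si-Lnc-Dpf3, each larger than counting error. The average CCR7L effect was -0.22 ± 0.07 (SE) and did not pass (limma adjusted p = 0.096). It passed after scaling to equal totals (-0.26, limma adjusted p = 0.0039) and with the length and GC trend removed (-0.23, 0.00047). Those settings called 8.15% and 14.2% of all genes, against 6.04% in the main fit. Mdh1 did not pass without the mean-variance trend (limma adjusted p = 0.24) or with the stimulation as the only factor (0.37). The ratio of Mdh2 to Mdh1 was 2.33 and 2.65 in Med and 2.82 and 2.97 with CCR7L.

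Aco1, the cytosolic aconitase that doubles as an iron-sensing RNA-binding protein, stood the other way, with 23.0 and 22.7 FPKM in Med and 26.0 and 25.9 FPKM with CCR7L under si-NC and si-Lnc-Dpf3. Its CCR7L log2 ratios of 0.17 and 0.18 were alike under both siRNAs and larger than counting error, but its average effect did not pass (limma adjusted p = 0.20). Idh1, the cytosolic isocitrate dehydrogenase, measured 52.4 and 53.4 FPKM with si-NC and 58.4 and 56.9 FPKM with si-Lnc-Dpf3 in Med and CCR7L, an average siRNA effect of 0.12 ± 0.06 (SE, limma adjusted p = 0.35, or 0.033 with the length and GC trend removed).

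In the carnitine shuttle, Cpt1a attaches carnitine at the outer membrane and is known as the rate-limiting step, Slc25a20 carries the ester across, and Cpt2 releases it inside. Cpt1a measured 25.0 FPKM in si-NC/Med, 23.9 in si-NC/CCR7L, 30.1 in si-Lnc-Dpf3/Med and 27.0 in si-Lnc-Dpf3/CCR7L. Both si-Lnc-Dpf3 libraries were higher, by log2 ratios of 0.26 and 0.17, and the average of 0.21 ± 0.07 (SE) did not pass (limma adjusted p = 0.12), but it did with the length and GC trend removed (0.19, limma adjusted p = 0.0075). Cpt2 also showed no overlap, at 8.07 and 8.30 FPKM with si-NC and 8.79 and 9.23 FPKM with si-Lnc-Dpf3.

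Slc25a20 measured 21.3 FPKM in si-NC/Med, 17.7 in si-NC/CCR7L, 21.1 in si-Lnc-Dpf3/Med and 19.4 in si-Lnc-Dpf3/CCR7L. The CCR7L libraries were the lower ones without overlap. Their log2 ratio of -0.25 under si-NC exceeded counting error, and that of -0.11 after si-Lnc-Dpf3 did not. The siRNA log2 ratios of Slc25a20 were -0.02 in Med and 0.13 under CCR7L, both within counting error, and its siRNA groups overlapped. Its average CCR7L effect was -0.18 ± 0.07 (SE, limma adjusted p = 0.23), which passed with the length and GC trend removed (-0.21, limma adjusted p = 0.0072).

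The acyl-CoA dehydrogenases catalyse the first step of each round of beta-oxidation on chains of different length. Acadl, the long-chain enzyme, was the most abundant and exceeded Acads, the short-chain enzyme, by 3.49 to 3.65 times. It measured 64.6, 63.8, 69.1 and 68.9 FPKM in si-NC/Med, si-NC/CCR7L, si-Lnc-Dpf3/Med and si-Lnc-Dpf3/CCR7L. Acads measured 18.5, 17.5, 19.5 and 19.1 FPKM in that order. For both, and for Acadvl, the very-long-chain enzyme, the si-Lnc-Dpf3 libraries were higher without overlap. Acadvl had an average siRNA effect of 0.16 ± 0.07 (SE, limma adjusted p = 0.28, or 0.031 with the length and GC trend removed), from 20.8 and 20.4 FPKM with si-NC and 22.6 and 23.5 FPKM with si-Lnc-Dpf3.

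Acadm, the medium-chain enzyme, was the only one of the 4 with a negative average siRNA effect. It measured 27.1 FPKM in si-NC/Med, 25.3 in si-NC/CCR7L, 25.9 in si-Lnc-Dpf3/Med and 22.6 in si-Lnc-Dpf3/CCR7L. It was lowest in si-Lnc-Dpf3/CCR7L, and both CCR7L libraries were below both Med libraries. Neither average effect passed, at -0.14 ± 0.07 for CCR7L and -0.11 ± 0.07 for the siRNA (SE, limma adjusted p = 0.34 and 0.46). The CCR7L effect passed with the length and GC trend removed (-0.16, limma adjusted p = 0.036), and it was -0.064 without si-Lnc-Dpf3/CCR7L. With Idh3b, Aco1, Mdh1 and Hadha it made up the 5 genes with a negative average siRNA effect.

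The later steps of beta-oxidation are carried out by Echs1, a short-chain hydratase, Hadh, a 3-hydroxyacyl-CoA dehydrogenase, Acaa2, a thiolase, and the trifunctional protein of Hadha and Hadhb. Acaa2 measured 25.1 FPKM in si-NC/Med, 26.1 in si-NC/CCR7L, 29.1 in si-Lnc-Dpf3/Med and 32.2 in si-Lnc-Dpf3/CCR7L. Both si-Lnc-Dpf3 libraries were higher, by log2 ratios of 0.21 and 0.29, and the average of 0.25 ± 0.07 (SE) missed the threshold (limma adjusted p = 0.065). It passed after scaling to equal totals (0.27, limma adjusted p = 0.020) and with the length and GC trend removed (0.27, 0.00016). Its CCR7L effect was 0.10 ± 0.07 (SE, limma adjusted p = 0.54). Hadh, the lowest of these genes, measured 13.3 and 14.7 FPKM with si-NC and 15.4 and 15.7 FPKM with si-Lnc-Dpf3 in Med and CCR7L.

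Hadha and Hadhb encode partners of 1 complex, lie on chromosome 5 in opposite orientations, and start 272 bases apart in RefSeq. Hadha measured 32.8, 34.2, 33.0 and 33.9 FPKM in si-NC/Med, si-NC/CCR7L, si-Lnc-Dpf3/Med and si-Lnc-Dpf3/CCR7L. Hadhb measured 29.2, 32.0, 32.7 and 32.4 FPKM, and the ratio of Hadha to Hadhb stayed between 1.01 and 1.12. The stretch between the starts that the pair shares is shown as the 250 bases before the Hadhb start (RefSeq, GRCm38.p6, chr5:30155003-30155252, plus strand, 5′ to 3′), because both genes are read outward from it. It held none of the 3 motifs described after the electron transfer genes.
Hadhb: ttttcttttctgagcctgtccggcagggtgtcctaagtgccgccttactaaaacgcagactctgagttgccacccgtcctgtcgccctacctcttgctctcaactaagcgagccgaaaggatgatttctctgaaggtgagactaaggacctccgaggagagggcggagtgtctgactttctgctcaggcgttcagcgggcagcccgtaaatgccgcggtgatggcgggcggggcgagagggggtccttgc

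Electrons from the acyl-CoA dehydrogenases pass to the electron transfer flavoprotein, a pair of Etfa and Etfb, and from there to the respiratory chain through Etfdh. Etfb measured 55.4 FPKM in si-NC/Med, 55.4 in si-NC/CCR7L, 61.6 in si-Lnc-Dpf3/Med and 66.5 in si-Lnc-Dpf3/CCR7L. The si-Lnc-Dpf3 libraries were higher without overlap, with an average effect of 0.21 ± 0.06 (SE, limma adjusted p = 0.10), which passed after scaling to equal totals (0.22, limma adjusted p = 0.024) and with the length and GC trend removed (0.25, 0.00013). Its partner Etfa followed the stimulation, with 44.3 FPKM in si-NC/Med, 49.95 in si-NC/CCR7L, 46.1 in si-Lnc-Dpf3/Med and 51.1 in si-Lnc-Dpf3/CCR7L. Both ratios of Etfa exceeded counting error, and the average CCR7L effect of 0.16 ± 0.06 (SE) did not pass (limma adjusted p = 0.22). Etfdh was the lowest of the 3 genes at 13.5, 14.2, 16.1 and 14.7 FPKM in si-NC/Med, si-NC/CCR7L, si-Lnc-Dpf3/Med and si-Lnc-Dpf3/CCR7L.

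**Figure D4:**
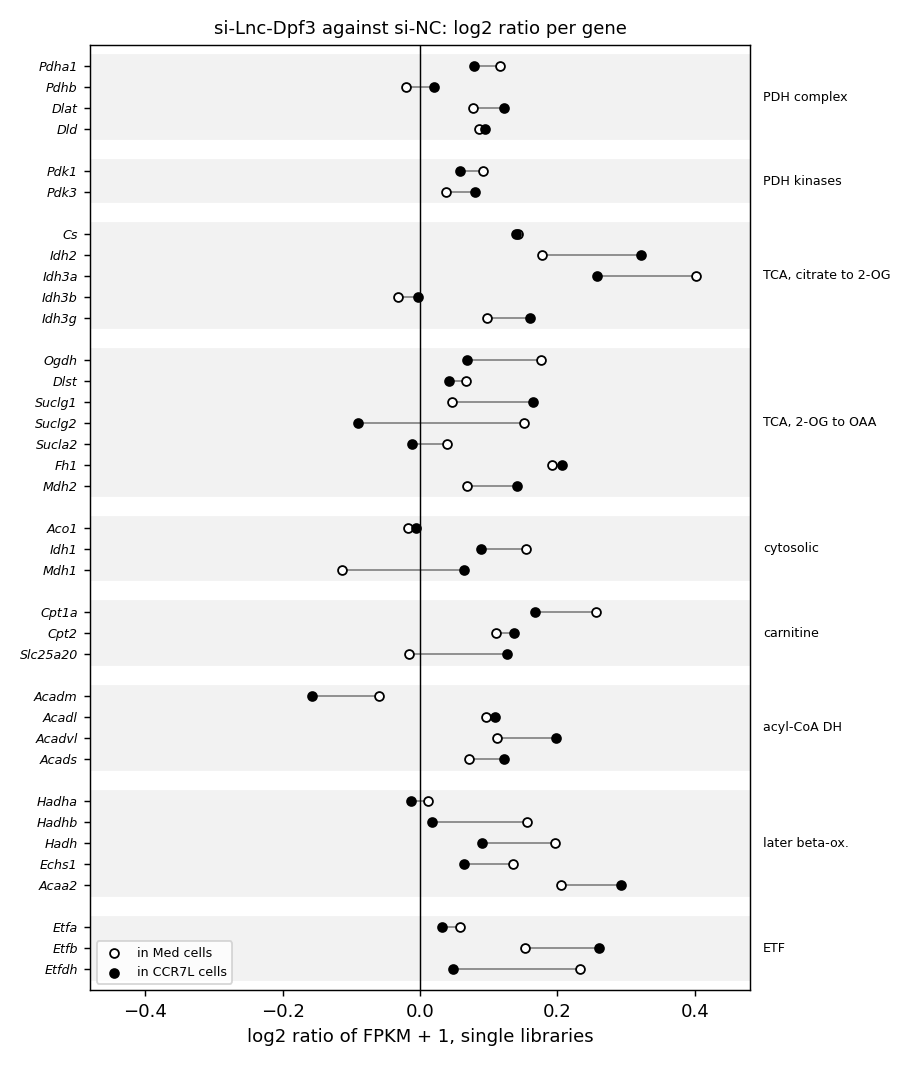
Log2 ratio of FPKM + 1 in si-Lnc-Dpf3 against si-NC for each gene, open circles in Med and filled circles under CCR7L, each from 2 single libraries. In each stimulation 30 of 36 genes lay to the right of 0, with Idh3a farthest in Med at 0.40 and Idh2 farthest under CCR7L at 0.32.

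Promoter windows of RefSeq (GRCm38.p6, 250 bases before to 50 after a start) matched 34 of the 36 genes, the exceptions being Acaa2 and Idh3a. Both strands were searched for 3 motifs, none of which contains another. ACGTG, the core of the hypoxia response element bound by HIF factors, was found for 6 of 34 genes (17.6%), Acadvl, Idh3g, Mdh1, Ogdh, Pdhb and Pdk3, against 21.8% of 27025 genes. TGACCTTG, the site of the ERR nuclear receptors, was found for Ogdh alone (1.76% of all genes), and the palindromic site of the factor NRF1 for Etfdh alone (1.07% of all genes). The windows below are the 250 bases before the start, 5′ to 3′ on the strand of the gene, with motif matches in capitals. Mdh1 is shown as the gene with the largest CCR7L difference (chr11:21571935-21572184, minus strand), and its capitals mark ACGTG. Etfdh (chr3:79628768-79629017, minus strand) is shown for the NRF1 match in capitals. Etfb (chr7:43443822-43444071, plus strand) and Idh2 (chr7:80115351-80115600, minus strand), both higher with si-Lnc-Dpf3, held no match in these windows. The Idh2 window precedes a start that lies inside the span of the gene in RefSeq (80094845 to 80118608 on chromosome 7), so it is not that of the outermost start. These are matches of letters and not measured binding.
Mdh1: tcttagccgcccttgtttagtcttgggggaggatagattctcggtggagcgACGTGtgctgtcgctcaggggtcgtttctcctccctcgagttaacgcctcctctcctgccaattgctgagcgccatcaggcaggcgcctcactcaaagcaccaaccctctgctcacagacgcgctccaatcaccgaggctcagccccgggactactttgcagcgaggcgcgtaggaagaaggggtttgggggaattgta
Etfdh: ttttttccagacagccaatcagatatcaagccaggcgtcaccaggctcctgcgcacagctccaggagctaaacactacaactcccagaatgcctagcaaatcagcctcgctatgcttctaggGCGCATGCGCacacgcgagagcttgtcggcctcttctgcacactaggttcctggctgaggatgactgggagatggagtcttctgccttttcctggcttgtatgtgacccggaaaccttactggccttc
Etfb: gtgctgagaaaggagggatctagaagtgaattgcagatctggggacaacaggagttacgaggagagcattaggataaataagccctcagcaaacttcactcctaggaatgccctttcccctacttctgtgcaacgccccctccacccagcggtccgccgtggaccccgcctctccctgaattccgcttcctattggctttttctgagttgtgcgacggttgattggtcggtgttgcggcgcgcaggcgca
Idh2: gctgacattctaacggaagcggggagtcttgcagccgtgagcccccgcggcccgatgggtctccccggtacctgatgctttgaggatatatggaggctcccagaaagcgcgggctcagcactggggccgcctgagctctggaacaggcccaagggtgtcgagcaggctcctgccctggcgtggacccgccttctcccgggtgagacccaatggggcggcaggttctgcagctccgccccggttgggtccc

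By branch, the siRNA differences were alike. The branch of 21 TCA cycle and pyruvate genes includes the kinases Pdk1 and Pdk3 and the cytosolic Aco1, Idh1 and Mdh1. Among these 21 genes 14 were higher with si-Lnc-Dpf3 without overlap and 18 had a positive average effect. Among the 15 fatty acid oxidation genes 11 and 13 did. The median log2 change was 0.10 in each branch. Over all genes 24.8% were higher without overlap. A positive average effect was found for 31 of 36 genes and a negative for 5, against 55.1% and 44.9% of all genes tested. In single contrasts 30 were higher and 6 lower in Med (54.3% and 45.3% of all genes) and 30 and 6 under CCR7L (52.4% and 47.1%). Counting error was exceeded by 17 higher and 1 lower in Med, against 26.2% and 18% of all genes, and by 16 and 1 under CCR7L, against 19.1% and 14.6%. In both stimulations the ratio was beyond counting error and higher for 12 of 36 genes, Dld, Cs, Idh2, Idh3a, Ogdh, Fh1, Mdh2, Idh1, Cpt1a, Acadl, Acaa2 and Etfb, against 10.1% of all genes with a length. For 0 genes it was lower beyond counting error in both, against 7%. With the length and GC trend removed, limma called 12 of 36 higher and 0 lower in the average siRNA effect, and the calls among all genes grew to 18.1%.

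CCR7L gave no shared direction over the 36 genes. Under si-NC 18 of 36 genes were higher and 18 lower, against 46.1% and 53.4% of all genes, with a median log2 ratio of -0.00, and counting error was exceeded by 4 higher and 3 lower genes, against 14.6% and 17.6%. Under si-Lnc-Dpf3 16 were higher and 20 lower, against 44.3% and 55.4%, with a median of -0.01, and counting error was exceeded by 4 and 6 genes, against 18.1% and 25.4%. On average 17 were higher and 19 lower, against 42.7% and 57.3%. The count higher on average was 11 after scaling to equal totals, 7 without si-NC/Med, 9 without si-Lnc-Dpf3/CCR7L, 24 without si-NC/CCR7L and 26 without si-Lnc-Dpf3/Med. The count higher under si-Lnc-Dpf3 was 7 after scaling to equal totals. At an unadjusted p under 0.05 limma counted 4 of 36 genes for CCR7L, and 1772 of all 11041. The CCR7L libraries lay above both Med libraries for 4 genes, Pdhb, Aco1, Hadha and Etfa, and below for 5, Idh3b, Dlst, Mdh1, Slc25a20 and Acadm, against 16.2% and 21.5% of all genes. For 0 of the 36 genes was FPKM + 1 at least 25% greater with CCR7L or with Med. Over all genes 2.84% were that much higher with CCR7L and 4.02% with Med in si-NC cells. After si-Lnc-Dpf3 these were 4.31% and 5.1%. Beyond counting error in both siRNA backgrounds were Cs, Aco1 and Etfa, higher, and Mdh1, lower, or 3 and 1 of 36 genes against 7.42% and 8.66% of all.

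**Figure D5:**
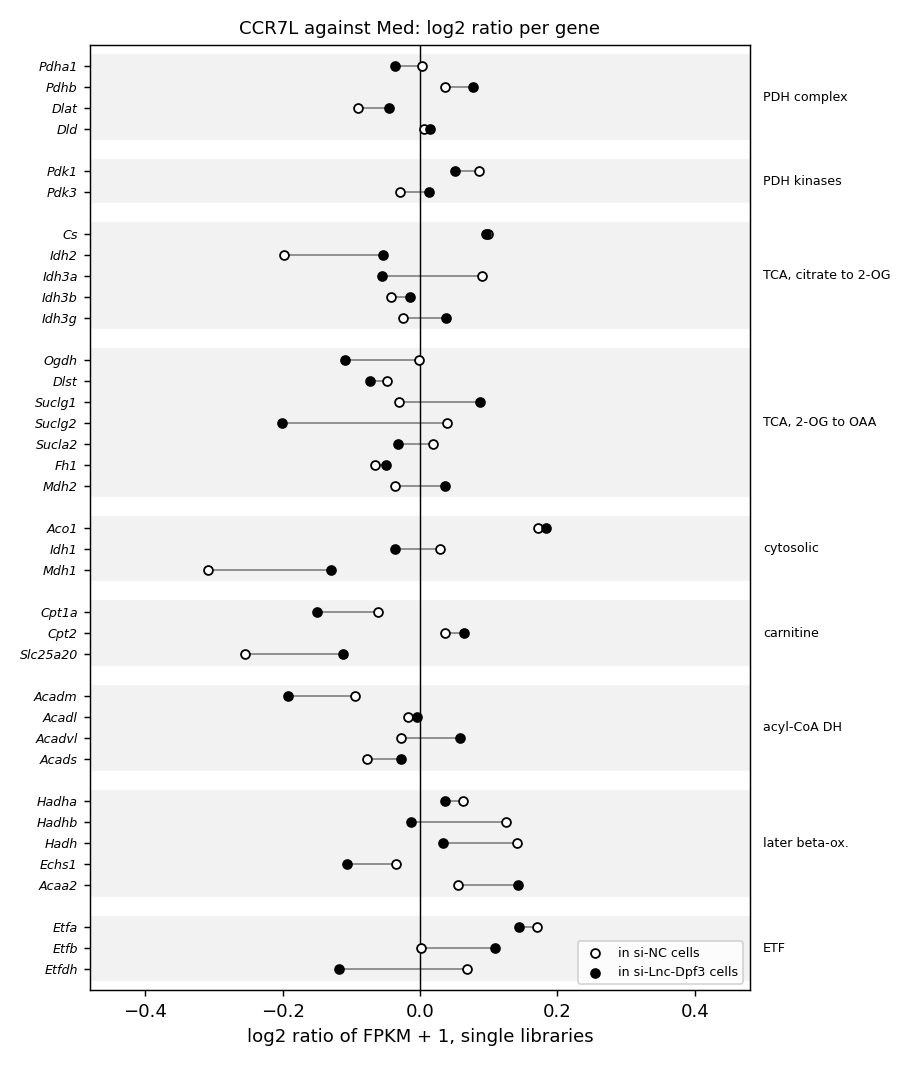
Log2 ratio of FPKM + 1 in CCR7L against Med for each gene, open circles under si-NC and filled circles under si-Lnc-Dpf3, each from 2 single libraries. Mdh1 at -0.31 and Slc25a20 at -0.25 under si-NC lie farthest left and Aco1 at 0.17 and 0.18 farthest right.

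The CCR7L ratios of the same gene under the 2 siRNAs had opposite signs for 12 of 36 genes, against 39.8% of all genes tested, and in 0 of the 12 were both ratios beyond counting error. The largest gap was that of Suclg2, at 0.04 in si-NC cells and at -0.20 after si-Lnc-Dpf3. The CCR7L ratio was greater under si-Lnc-Dpf3 than under si-NC for 19 of 36 genes and smaller for 17, against 48.5% and 51.5% of all genes, and greater for 8 of 36 after scaling to equal totals. This difference of differences had no residual degree of freedom and was not tested.

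Other genes of these pathways were read beside the 36. Of 31 further TCA and pyruvate genes 28 were tested, and with CCR7L 1 rose and 2 fell, against 2.93% and 3.11% of all genes. Got1, the cytosolic aspartate aminotransferase that works with Mdh1 in the malate-aspartate shuttle, measured 54.9 FPKM in si-NC/Med, 32.0 in si-NC/CCR7L, 47.6 in si-Lnc-Dpf3/Med and 27.3 in si-Lnc-Dpf3/CCR7L. It fell with CCR7L by 0.77 on the log2 scale, with SE 0.06. Glud1, the glutamate dehydrogenase that feeds 2-oxoglutarate to the cycle, fell by 0.28 (SE 0.06, limma adjusted p = 0.025), from 116 and 115 FPKM in Med to 93.2 and 97.0 FPKM with CCR7L. Slc25a10, the mitochondrial dicarboxylate carrier, rose by 0.39 ± 0.08 (SE, limma adjusted p = 0.014), from 11.8 and 11.3 FPKM to 14.95 and 16.1 FPKM.

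Of 38 further fatty acid oxidation genes 33 were tested, and with CCR7L 1 rose and 0 fell, against 2.93% and 3.11% of all genes. The gene that rose was Acot13, an acyl-CoA thioesterase. It measured 19.5 and 18.6 FPKM in Med and 24.0 and 24.9 FPKM with CCR7L (0.34 ± 0.07, SE, limma adjusted p = 0.015). In the average siRNA effect 0 of 28 and 0 of 33 of these further genes were called by limma in either direction. The si-Lnc-Dpf3 libraries were higher without overlap for 7 of the 28 and 8 of the 33, a share near the 24.8% of all genes, and lower for 3 and 4. The median average effects of these lists were 0.02 and 0.01.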

How the data were processed

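RNA-seq values of 4 libraries were analysed, 1 per group. Per the file headers, the deposited table gives FPKM, rounded to 2 decimals. Bowtie2, RSEM and GRCm38 appear in the submitters' processing notes without versions or settings. The abbreviations nc or si and un or tr in the column names were read as the siRNA and the stimulation. Coordinates came from RefSeq through Entrez numbers, and transcript length and GC content from GENCODE transcripts.

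The log2 of FPKM plus a pseudocount of 1 was used for the 11041 genes whose mean reached 1 FPKM, so ratios of low genes are understated. limma 3.58.1 in R 4.3.3 was fitted with siRNA and stimulation as additive factors and a trend of variance on mean, and p-values were adjusted over all genes by Benjamini-Hochberg at 0.05. The interaction supplies the only residual degree of freedom (1), and 9.63 prior degrees, loosely determined, are borrowed across genes. It replicates no group, and its p-values do not measure the spread between cultures. The fit was tested on simulated data with known changes, where the share of false calls varied and could pass the nominal level, so the adjusted p-values may understate the error rate.

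Depth was estimated as the read number at which low FPKM values of single-transcript genes came closest to whole reads. The share of values then no more than 0.1 from a whole read was 57.8% to 64.5%. Chance gives 20% at a depth fixed beforehand, and more at a depth chosen for the largest share, as here. Reads were thus not recovered and no count test was run. Counting error is a 95% Poisson approximation at that depth.

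The genes and lists were chosen with earlier results of these data known. Values in each library are given for genes past the test, for the largest average effects and for the highest and lowest level in each of 9 role groups. The other genes printed (Idh3b, Idh3g, Sucla2, Hadhb and the positive CCR7L ratios of Aco1 and Cs among them) were chosen after their values were seen. Alternatives were other pseudocounts, filters, scalings and models, removal of the trend on length and GC content, and each library left out.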

Additional observations from a re-analysis of the deposited data

How the results depend on the processing

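With 36 genes and 1 library per group, the counts of calls depended on the model. CCR7L called 0 genes in limma, 1 (Mdh1, lower; 8.15% of all genes) after scaling to equal totals and 5 (1 higher, 4 lower; 14.2% of all genes) with the length and GC trend removed. The siRNA called 1 gene, 0 without a filter on low values (0 of 18021 genes), 0 without the mean-variance trend (0.697%), 0 with the siRNA as the only factor (1 of 11041 genes), 4 with equal totals (7.7%) and 12 with the length and GC trend removed (18.1%). With 1 library left out the counts were 0 to 0 for either factor, where 0 of all genes passed for the siRNA and 0.806% to 1.54% for CCR7L. The cause was not tested. In the 6 other settings run on all 4 libraries, 22 to 26 of the genes were higher with si-Lnc-Dpf3 without overlap (19.3% to 27.8% of all genes), and 27 to 28 with 1 library left out (36.9% to 44.3%). Lower without overlap were 0, or 2 with median-ratio scaling (20% of all genes) and 2 to 4 with 1 library left out (27.2% to 33.4%). With CCR7L, 4 genes were higher without overlap, 2 with equal totals (11% of all genes), 7 with median-ratio scaling (19.1%) and 4 to 17 with 1 library left out (26.3% to 33.6%). Lower were 5, 3 with median-ratio scaling (18.9%) and 5 to 20 with 1 library left out (34% to 45.4%), where 1 library is set against 2. With equal totals the genes higher with CCR7L under si-Lnc-Dpf3 were 7 in place of 16, and those with the greater ratio under si-Lnc-Dpf3 were 8 in place of 19. With 1 library left out the average CCR7L effect of Idh2 ran from -0.29 to 0.035, positive without si-NC/CCR7L, and that of Acaa2 from -0.047 to 0.25, negative without si-NC/Med (-0.0038) or si-Lnc-Dpf3/CCR7L. These counts without overlap under other settings were chosen after seeing the data. No paired analysis was possible because each group holds 1 library and the labels give no replicate numbers.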

Other observations

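Among 16 regulators of oxidative metabolism 13 were tested. In the average siRNA effect 2 rose and 0 fell (limma), against 2.33% and 2.04% of all genes. Pparg, a nuclear receptor that controls lipid uptake and storage genes, measured 23.6 FPKM in si-NC/Med, 24.4 in si-NC/CCR7L, 35.6 in si-Lnc-Dpf3/Med and 31.5 in si-Lnc-Dpf3/CCR7L, with an average effect of 0.46 ± 0.07 (SE, limma adjusted p = 0.0089). Myc, a factor of growth and proliferation, measured 28.5, 29.0, 39.6 and 37.0 FPKM in the same order (0.40 ± 0.07, SE, limma adjusted p = 0.011). Both stood beside the higher cell cycle and neutrophil sums in these libraries, whose part was not tested. Hif1a, the gene of the factor in the study's title, measured 71.0, 71.9, 74.0 and 67.4 FPKM in that order, with an average siRNA effect of -0.02. Ppara, the nuclear receptor known for driving fatty acid oxidation genes in liver, was listed at 0.00 or 0.01 FPKM in all 4 libraries.

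Several isoenzymes of the same steps were low in every library. Pdk4, the pyruvate dehydrogenase kinase known to rise on fasting, was at most 0.10 FPKM, Ogdhl at most 0.14, and Acsl6, an acyl-CoA synthetase, at most 0.02. Cpt1b, the muscle-type carnitine transferase, measured 0.70 to 1.01 FPKM. Acsl1, which activates long-chain fatty acids, was the most abundant of the further fatty acid genes at 207 to 236 FPKM.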
